A study of Mus musculus with 84 samples.

Results

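The comparison was made between ACSA-2+ GLASTneg cells sorted from the spinal cord of mice at the peak of experimental autoimmune encephalomyelitis (EAE) and the same sort at disease onset, with no control library in the contrast. EAE is a mouse model of multiple sclerosis in which autoreactive T cells enter the central nervous system and start demyelinating inflammation. The members were the 5 libraries titled E1_SC_A, from animals killed at score 1 (limp tail), and the 6 libraries titled E4_SC_A, from animals killed at score 4 (complete hind leg paralysis), which makes 11 of the 84 libraries of the series and 11 of the 66 of the EAE experiment. All animals of both groups were female C57BL/6 mice immunised at 10 weeks of age with the myelin peptide MOG35-55 in complete Freund's adjuvant and injected with pertussis toxin, and the cervical and thoracic cord was used. Each library came from the cells of up to 2 pooled mice, sorted as CD11B and CD45 negative, ACSA-2 positive and GLAST negative. ACSA-2 is an epitope of ATP1B2 and GLAST is SLC1A3, so Atp1b2 and Slc1a3 are the genes of the sorting antigens. Unimmunised mice (C_SC_A, 5 libraries) are given only as background levels, and the E1 and E4 libraries of hindbrain GLASTneg (6 and 6) and GLASTpos (6 and 6) cells as the nearest populations in which the same change of stage was measured. The question was how the expression of these cells differed between onset and peak.

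Astrocytes clear glutamate and potassium from the extracellular space, supply neurons with lactate and cholesterol, cover the blood vessels with end feet and release factors that organise synapses. In inflammation they induce interferon-stimulated genes, major histocompatibility complex (MHC) genes, complement and acute phase proteins, and this state is called reactive. Interferons act through STAT and IRF transcription factors, and a common target sequence of these factors is the interferon-stimulated response element.

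Levels are CPM, counts scaled to the TMM-adjusted size of the library, and changes are log2 fold changes of E4 minus E1 with their standard error (SE) from edgeR's quasi-likelihood test over all 12 EAE groups. A gene was called at a Benjamini-Hochberg adjusted p under 0.05 and a log2 fold change past 1 in either direction. For gene lists, the base rate is the share called among the 10967 tested genes whose average reached 5 CPM at E1 or E4. It was 1.39% higher and 7.09% lower, against 0.827% and 3.97% of all 23324 genes tested. Several lists also hold genes under 5 CPM, and for these lists the base rate is only a rough reference. The library totals were 2301888 to 4144607 counts at E1 and 1772622 to 4895220 at E4, so that 3 counts, taken as the detection floor, equalled 0.747 to 1.37 CPM at E1 and 0.682 to 1.69 CPM at E4. The floor covers counting error only. Positions and overlaps are from GENCODE vM21 (GRCm38). Whether reads were counted by strand is not given in the sources used here, so reads of a gene and its antisense neighbour cannot be told apart, which concerns Slc1a2 (Gm13872), Slc7a10 (Lrp3), B2m (Patl2), Mt2 (Gm45774) and Sparcl1 (Gm26703).

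Several libraries stood apart or went against a label. E4 replicate 2 had a summed level of 7055 CPM over 17 microglia and macrophage genes against 176 to 400.1 CPM in the other 5 E4 libraries, a summed monocyte and neutrophil level of 711 CPM against 6.77 to 50.2 CPM, and 210.2 CPM of Ptprc, the gene of the gated-out CD45, against 8.19 to 23.9 CPM. E1 replicate 2 had the highest summed astrocyte level of its group, 82686 CPM, within the unimmunised range. The title of E1 replicate 1 gives spinal cord while its region fields give hindbrain. Its summed level of 9 Hox genes of the trunk was 310.1 CPM, and the 24 hindbrain EAE libraries lay between 0 and 28 CPM. The index that the labels carry placed 1 E1 library (replicate 3) and 5 E4 libraries in the lower index range (up to 56), and 4 E1 libraries and 1 E4 library (replicate 3) in the upper range (from 57), so that this index and the stage could hardly be told apart.

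The sorted libraries also carried much oligodendrocyte RNA. The summed level of 10 oligodendrocyte genes was 41552, 26907, 62059.5, 44794 and 33654 CPM in E1 replicates 1 to 5 and 30355 to 77669.7 CPM at E4 (median 53758), against 14353 to 41867 CPM in unimmunised cord. It exceeded the summed level of the 30 astrocyte genes in 4 of 5 E1 libraries and in 6 of 6 E4 libraries. The libraries are therefore called by their sort, GLASTneg, and not by a cell type.

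**Figure D1:**
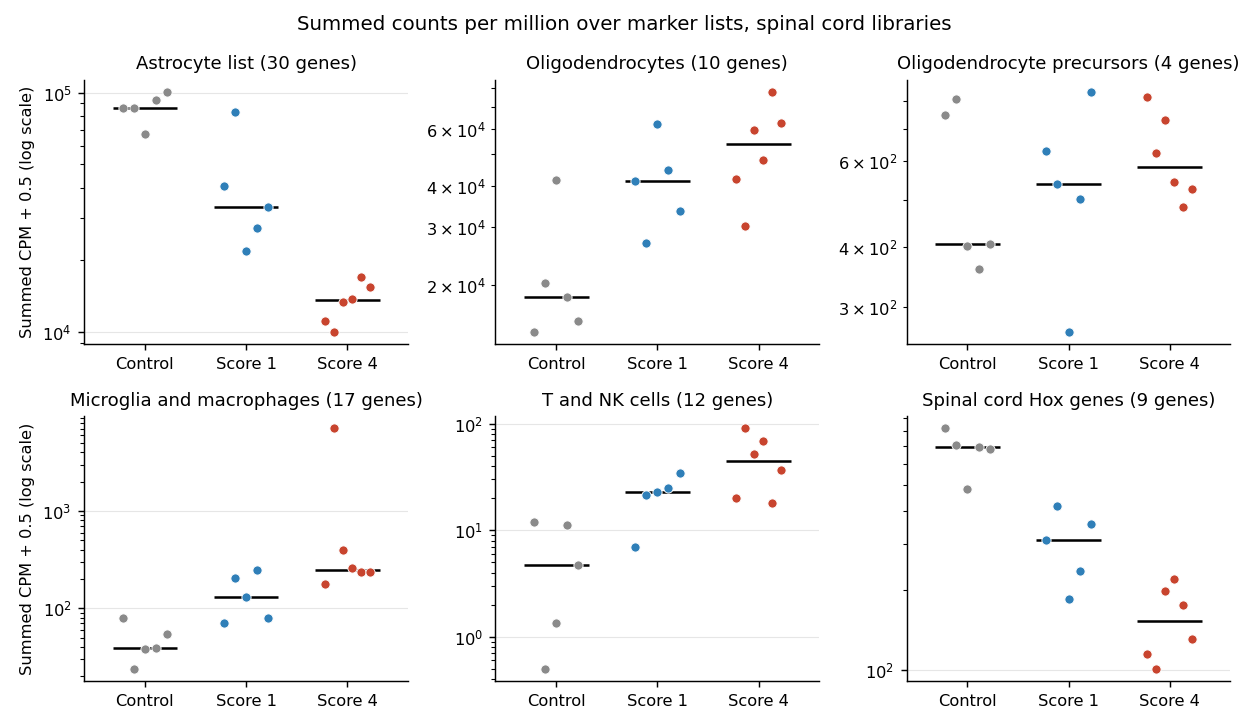
Summed CPM + 0.5 (log scale) over 6 marker lists in the spinal cord GLASTneg libraries of unimmunised (Control, 5), score 1 (5) and score 4 (6) mice; each point is a library, in replicate order from left to right, and the black line is the median. The astrocyte list fell without overlap from score 1 to score 4, the oligodendrocyte lists overlapped, and 1 score 4 library (replicate 2) stood far above the rest in microglia and macrophage genes.

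Of 23324 genes tested, 1120 (4.8%) were called, with 193 (0.827%) higher and 927 (3.97%) lower at E4. A log2 fold change past 3 was reached by 324 of the 927 lower genes (35%) and by 93 of the 193 higher genes (48.2%). The 5 E1 and 6 E4 libraries did not overlap for 269 of the 927 lower genes (29%) and for 35 of the 193 higher genes (18.1%), where over all genes tested the E4 libraries lay wholly below E1 for 1.33% and wholly above for 0.639%. Without E4 replicate 2 the called genes numbered 77 higher and 898 lower, of which 63 and 792 were among those called with it. The total was 435 when the 11 libraries were fitted alone, 681 without E1 replicate 2, 429 with the index range as a term and 1353 by DESeq2, the tool of the study. Within the index ranges, each of which has 1 library of one stage, 174 of the 193 higher genes (90.2%) and 696 of the 927 lower genes (75.1%) kept their sign in both. All 193 higher genes kept it in the lower range and all 927 lower genes in the upper range. The genes were called in these same libraries, so such agreement is partly built in, and no share was taken for uncalled genes. These shares therefore cannot separate stage from index.

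Most astrocyte genes fell from onset to peak. Of 30 astrocyte marker and homeostatic genes, all tested, 25 were called lower (83.3%, base rate 7.09%) and 0 higher. The libraries of the groups did not overlap for 20, against 299 lower without overlap of the 10967 genes at 5 CPM or more. The median log2 fold change was -2.67 (all genes tested, 0). The summed level of the list was 40797, 82686, 21675, 27089 and 33126 CPM in E1 replicates 1 to 5 and had a lowest value of 9940.1, a median of 13492 and a highest value of 16924 CPM at E4. Every E4 library lay below every E1 library, and the unimmunised libraries held 67124 to 100760.0 CPM. In these bulk samples fewer astrocytes in the sort and less of these RNAs per astrocyte cannot be told apart. Of the oligodendrocyte genes beside it 0 of 10 were called (all genes tested 4.8%, median 0.43), and their part in the result was not tested. Within the lower and the upper index range 28 of the 30 genes were lower at E4, by a median of -1.37 and -3.27, and 21 were called with the index range as a term, without E1 replicate 2 or in the 11 libraries alone. The share of all genes that were lower within each index range was not taken. Without E1 replicate 2 the median of the list was -1.96.

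The antigen gene used for the sort was among them. Atp1b2 (GRCm38 chr11:69599736-69605942, minus strand), the beta-2 subunit of the sodium-potassium pump, was at 2811, 9213, 1331, 1779 and 2323 CPM at E1 and at 103 to 598 CPM at E4 (median 361). The highest E4 library lay below the lowest E1 library, and the change was -3.29 (SE 0.30, adjusted p = 7.6e-14 by edgeR), a 9.79-fold lower mean. Slc1a3, the gene of the antigen gated against, was at 106, 226, 43.4, 38.7 and 56.8 CPM at E1 and 8.94 to 39.1 CPM at E4 (median 35.9). The groups overlapped by 1 E1 library, and the change was -1.60 (SE 0.27, adjusted p = 6.3e-06 by edgeR). Without E1 replicate 2 it was -0.94 and no longer past the threshold of 1, and the call was also lost in the 11 libraries alone.

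Several transporters and channels of the astrocyte membrane fell, while the potassium channel Kcnj10 was not called. Slc1a2 (chr2:102658659-102790784, plus strand), the main glutamate transporter, was at 2656, 6097, 951, 1267 and 1600.2 CPM at E1 and at 139 to 602 CPM at E4 (median 294). The groups did not overlap, and the change was -2.90 (SE 0.27, adjusted p = 2.5e-13 by edgeR). Slc7a10 (chr7:35186385-35201114, plus strand), a transporter of small neutral amino acids including D-serine, was at 100.3, 308, 35.9, 44.2 and 71.4 CPM at E1 and at 0 to 8.41 CPM at E4 (median 0.703). Its E4 median was near the detection floor, and its change of -5.31 (SE 0.51, adjusted p = 4.4e-13 by edgeR) was the most negative of the list. The bicarbonate cotransporter Slc4a4 fell by 3.79 and the GABA transporter Slc6a11 by 3.47 on the log2 scale. Aqp4, the water channel of the end feet, was at 685, 1689, 235, 352 and 508 CPM at E1 and at 11.3 to 195 CPM at E4 (median 74.2), a change of -3.04 (SE 0.33, adjusted p = 2.4e-11 by edgeR). All 6 E4 libraries lay below the lowest E1 library. The gap junction gene Gja1 (connexin 43; chr10:56377330-56402513, plus strand) was at 323, 1091, 143, 101 and 227 CPM at E1 and at 2.26 to 81.6 CPM at E4 (median 25.4), a change of -3.48 (SE 0.41), and its partner Gjb6 (connexin 30) changed by -3.54 (SE 0.41). Cldn10, a claudin, changed by -4.12.

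The regulator Sox9 and several receptors of the list fell as well. Sox9 (chr11:112782224-112787760, plus strand), a transcription factor of astrocyte identity, was at 151, 624.7, 94.8, 98.3 and 195 CPM at E1 and at 11.3 to 60.7 CPM at E4 (median 23). The groups did not overlap, and the change was -2.98 (SE 0.31, adjusted p = 1e-11 by edgeR). Fgfr3, a fibroblast growth factor receptor of astrocytes, changed by -3.36, Ntsr2, a neurotensin receptor, by -3.56, and Btbd17 by -3.44. Aldh1l1, a folate enzyme widely used as a pan-astrocyte marker, was at 30.4, 45.1, 11.5, 26.7 and 19.1 CPM at E1 and at 2.66 to 12.6 CPM at E4 (median 6.8). One E1 library overlapped the E4 range, and the change was -1.82 (SE 0.34, adjusted p = 5.1e-05 by edgeR). Apoe, the main lipid carrier of the brain, was at 474 to 2412 CPM at E1 and at 93.1 to 205 CPM in 5 E4 libraries, with 1322 CPM in E4 replicate 2, where macrophage genes were high. Its change was -1.60 (SE 0.34) with that library and -2.83 without it, and 4 of 21 alternatives lost the call, among them the 11 libraries alone and the fit without E1 replicate 2.

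The other 5 genes of the list were not called. S100b, a calcium-binding protein that oligodendrocyte lineage cells also make, was at 2547, 1991, 1248, 1875 and 1839 CPM at E1 and at 1354 to 3527 CPM at E4 (median 1969), a difference of 0.22 (SE 0.19, adjusted p = 0.59 by edgeR). The groups overlapped through most of their range. The differences were 0.31 (SE 0.23) for Glul, the glutamine synthetase, -0.23 (SE 0.16) for Kcnj10, the inward rectifier potassium channel, -0.43 (SE 0.17) for Hepacam, an adhesion molecule, and -0.13 (SE 0.22) for Mfge8, a bridging protein of phagocytosis. Gfap, the intermediate filament that marks reactive astrocytes and is not in the list, was at 159, 323, 126, 195 and 164 CPM at E1 and at 85.2 to 152 CPM at E4 (median 95.5), against 26.9 to 69.1 CPM in unimmunised cord. Both stages stood above the unimmunised libraries, and the difference between the stages was -0.88 (SE 0.33, adjusted p = 0.11 by edgeR).

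**Figure D2:**
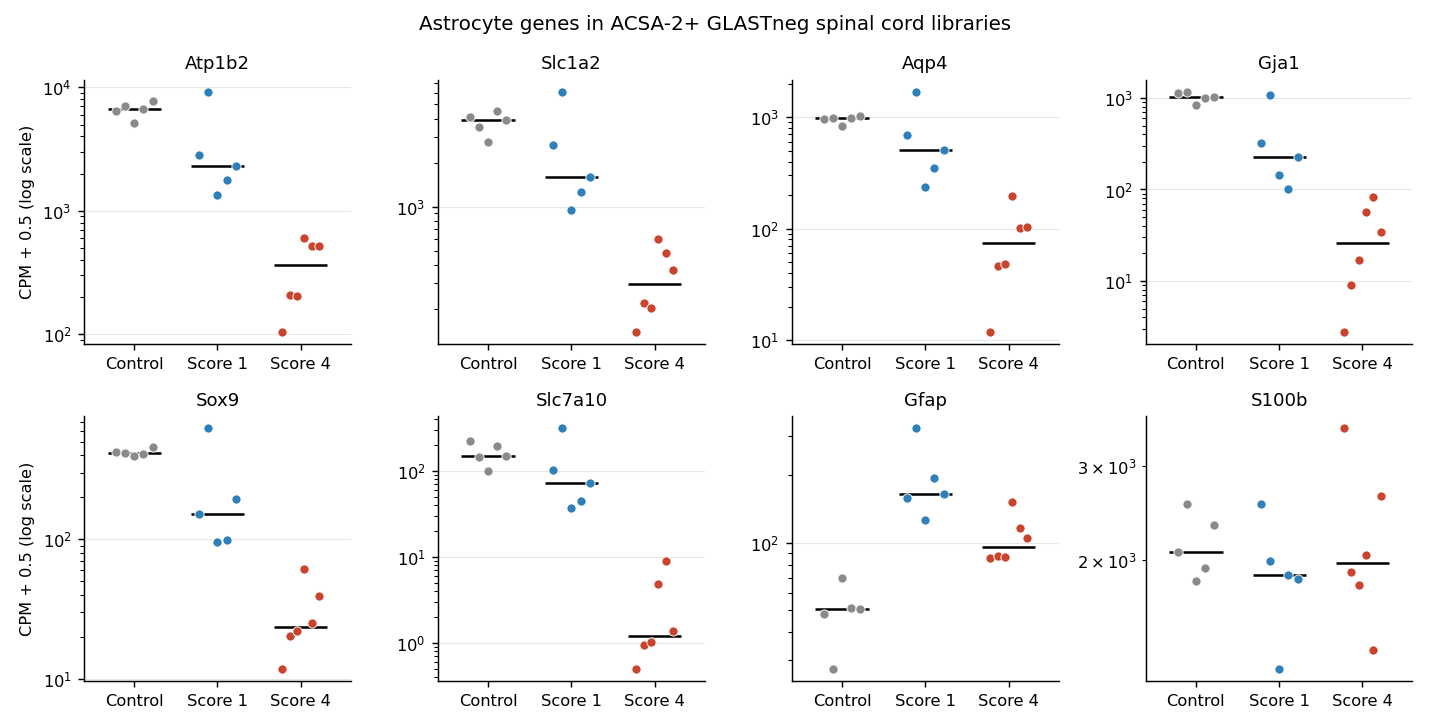
CPM + 0.5 (log scale) of 8 genes in the spinal cord GLASTneg libraries of unimmunised (Control, 5), score 1 (5) and score 4 (6) mice; each point is a library, in replicate order from left to right, and the black line is the median. Atp1b2, Slc1a2, Aqp4, Gja1, Sox9 and Slc7a10 separated score 1 from score 4, Gfap lay above the unimmunised level at both scores, and S100b overlapped in all groups.

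The 10 non-overlapping genes with the most negative change were Colec12, Cyp4f15, Shisa6, Entpd2, Gm9925, Slc7a10, Aqp6, Rilp, Hes1 and Slc39a12. Hes1 (chr16:30064384-30067796, plus strand), a Notch target and transcriptional repressor, was at 61, 136, 13.4, 9.93 and 64.4 CPM at E1 and at 0.449 to 2.72 CPM at E4 (median 2.04). Unimmunised cord held 131 to 159 CPM, and the change from E1 to E4 was -5.00 (SE 0.56, adjusted p = 1.5e-10 by edgeR). Entpd2, an ectonucleotidase that hydrolyses extracellular ATP, was at 65.2, 161, 19, 15.4 and 76.2 CPM at E1 and at 0 to 3.87 CPM at E4 (median 0.838), a change of -5.47 (SE 0.49). It overlaps Npdc1 on the same strand, and reads could be split between the genes. Slc39a12, a zinc transporter, changed by -4.87 (SE 0.47) from 158, 646, 38.7, 65.4 and 134 CPM to at most 23.7 CPM. Colec12, a scavenger receptor, and Cyp4f15, a cytochrome P450, had 0 counts in all 6 E4 libraries. Against a floor of 3 counts per library the E1 means were at least 5.25-fold and 5.05-fold higher, and in E1 replicate 3 Cyp4f15 was itself under the floor. The AMPA receptor auxiliary subunit Shisa6 (at least 13.97-fold) was at 56 CPM in E1 replicate 2 and 4.79 to 8.96 CPM in the other 4 E1 libraries. The lysosomal adaptor Rilp stood at 21 CPM in E1 replicate 2 and at 1.37 to 2.53 CPM elsewhere at E1, so its E1 mean rested on that library, without which it was not called.

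Astrocytes also act on synapses through secreted and surface factors. Of 16 synapse-organising factors 6 were called lower (37.5%, base rate 7.09%) and 0 higher, and 10 were not called. The median was -0.85, and 5 of the 16 had a positive sign. Sparcl1 (hevin; chr5:104079111-104113733, minus strand), a secreted matrix protein that bridges neurexins and neuroligins, was at 2572, 5531, 679, 1431 and 1903 CPM at E1 and at 213 to 565 CPM at E4 (median 353). The groups did not overlap, and the change was -2.74 (SE 0.27, adjusted p = 8.9e-13 by edgeR). The glypicans Gpc5 and Gpc6, heparan sulphate proteoglycans of which some recruit glutamate receptors, changed by -4.05 (SE 0.60) and -2.62 (SE 0.36), and the thrombospondin Thbs2 by -1.95 (SE 0.42). The call for Gpc4 rested on 1 library, E1 replicate 2, with 17.8 CPM where the other 10 libraries had 0. Without that replicate 4 of the 16 genes were called lower.

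Of 13 blood-brain barrier genes that the study grouped and that were tested, 6 were lower (46.2%, base rate 7.09%) and 0 higher (median -1.51). Aqp4 and Gja1 are also members of the astrocyte list. Vegfa, the vascular endothelial growth factor, was at 85.1, 258, 19.7, 52.1 and 49.5 CPM at E1 and at 4.41 to 32.8 CPM at E4 (median 7.21), a change of -3.01 (SE 0.37, adjusted p = 2.9e-09 by edgeR). One E1 library lay below the highest E4 library, E4 replicate 2. The glucose transporter Slc2a1 was at 211, 403, 137, 80.1 and 145 CPM at E1 and 30.5 to 111 CPM at E4 (median 46.4), a change of -1.72 (SE 0.32). Angpt1, an angiopoietin, changed by -1.88, a call lost in 13 of 21 alternatives, and Pld2, a phospholipase D, by -1.12, lost in 10 of 21.

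Energy metabolism genes split. Of 15 lactate metabolism genes of the study's own list, Ldhb and Slc2a1 were lower (13.3%, base rate 7.09%) and 13 were not called (median 0.08). Ldhb, a lactate dehydrogenase subunit, was at 73.7, 123, 45.8, 74.7 and 64.1 CPM at E1 and 10.7 to 22.6 CPM at E4 (median 21.4), without overlap, a change of -1.93 (SE 0.24, adjusted p = 4.3e-09 by edgeR). Of 21 glycolysis and hypoxia genes 4 were lower (19%, base rate 7.09%), among them the glycolytic enzymes Eno1 (-2.07) and Pfkp (-2.21) beside Slc2a1 and Vegfa. The 2 called higher (9.52%, base rate 1.39%), Pgam1 and Hk2, were highest in E4 replicate 2 and 0 were called higher without it. Hk2 was then at -0.43 and Pgam1 at 3.85 (SE 1.28, adjusted p = 0.064 by edgeR), from 5.56 with that library. Pgam1 was at 0 to 9 CPM at E1 and at 0 to 212 CPM in the other 5 E4 libraries. Eno1 lost its call with the index range as a term. Pgam1 has near-identical copies in the genome, and its reads could be split between them.

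Cholesterol synthesis, whose product astrocytes export, was lower at some of its steps. Of 19 genes of the study's list 5 were lower (26.3%, base rate 7.09%) and 0 higher, and the median was -0.53. A negative sign was found in 18 of 19, against 5568 of the 10967 genes at 5 CPM or more. The synthase Hmgcs1, an early step, changed by -1.05 (SE 0.21), with 1 E1 library (replicate 2, 1038 CPM) inside the E4 range of 567 to 1066 CPM. Methylsterol monooxygenase Msmo1 (chr8:64718139-64733792, minus strand) was at 1047, 1169, 1405, 1238 and 994 CPM at E1 and at 325 to 762 CPM at E4 (median 557). The groups did not overlap, and the change was -1.09 (SE 0.20, adjusted p = 3.3e-05 by edgeR). Squalene synthase Fdft1 (-1.10, SE 0.34) and the sterol reductase Tm7sf2 (-2.10, SE 0.48) were called too. Without E4 replicate 2 or without E1 replicate 3, 2 of the 19 were called. Without E4 replicate 2 Msmo1 was at -0.96 and Hmgcs1 at -0.94, each with an adjusted p under 0.05 but short of the threshold of 1. Fdft1 lost its call in 11 of 21 alternatives.

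Among metallothioneins, small proteins that bind zinc and copper, Mt1, Mt2 and Mt3 were lower without overlap between the groups. Mt2 (chr8:94172664-94173568, plus strand) was at 2697, 7078, 1466, 2024 and 2779 CPM at E1 and at 459 to 926 CPM at E4 (median 744), against 1176 to 2836 CPM in unimmunised cord. Its change was -2.21 (SE 0.38, adjusted p = 9.3e-06 by edgeR), lost with the index range as a term. Mt1 changed by -1.32 (SE 0.37) and Mt3, the form of the nervous system, by -2.66 (SE 0.35). Hmox1, the heme oxygenase, went the other way, at 53.5, 58.8, 124, 82.9 and 111 CPM at E1 and at 102 to 419.5 CPM at E4 (median 180.3), a change of 1.30 (SE 0.32, adjusted p = 0.0036 by edgeR). Its highest value was in E4 replicate 2, without which it was not called.

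Few immune genes rose between the stages in all E4 libraries. B2m (chr2:122147686-122153083, plus strand), the light chain of MHC class I, was at 398, 426, 1715, 755 and 664 CPM at E1 and at 1802 to 2813 CPM at E4 (median 2401), against 68.2 to 94.3 CPM in unimmunised cord. The lowest E4 library stood above the highest E1 library, and the change was 1.57 (SE 0.34, adjusted p = 0.00067 by edgeR). The index range moved with this value, since the 1 E1 library in the lower index range was the highest, and the change was 0.40 within that range and 2.33 within the upper one. The heavy chain H2-D1 (chr17:35262730-35267499, plus strand) was at 442, 204, 1126, 552 and 556 CPM at E1 and at 1086 to 2349.7 CPM at E4 (median 1705), a change of 1.55 (SE 0.38, adjusted p = 0.0039 by edgeR). The groups overlapped by 1 E1 library (replicate 3), and H2 genes are near-identical copies among which reads could be split. Neither B2m nor H2-D1 lost its call in any of the 21 alternatives. They were the 2 of 22 class I machinery genes that were called (9.09%, base rate 1.39%), and the peptide transporters and immunoproteasome genes Tap1, Tap2, Psmb8 and Psmb9 were not.

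The counts of interferon-response genes called higher between the stages were near the base rate. Of 34 interferon-stimulated genes 1 was called, higher (2.94%, base rate 1.39%, median 0.16), and of 16 interferon-inducible GTPases 0 (median 0.47). In either list 0 were called lower (base rate 7.09%). In lists this short 1 and 0 genes called higher cannot be told apart from the base rate. Every E1 and E4 library lay above the unimmunised range for 21 of the 34 and for 9 of the 16 genes, against 1.27% of all genes tested. Zbp1, a sensor of Z-form nucleic acids, was at 8.96, 4.1, 38.3, 17.8 and 43.6 CPM at E1 and at 78.5 to 188 CPM at E4 (median 102), a change of 2.36 (SE 0.74, adjusted p = 0.038 by edgeR) that was lost in 8 of 21 alternatives. The immunity-related GTPase Igtp was at 286, 582, 1227, 559 and 669.7 CPM at E1 and at 497 to 1014 CPM at E4 (median 681), against 4.01 to 16.6 CPM in unimmunised cord. The stages overlapped and the difference was 0.09 (SE 0.52, adjusted p = 1 by edgeR), while every E1 and E4 library lay above the unimmunised range. Iigp1, of the same family, differed by 0.50 (SE 0.57), with 0 to 5.61 CPM in unimmunised cord and at least 191 CPM in each E1 and E4 library. Igtp overlaps Irgm2 on the same strand.

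The upstream sequences of B2m and Igtp are shown because both genes are interferon targets above the unimmunised range at both stages, of which 1 was called between the stages and 1 was not. Each is the 250 bases before the start site from RefSeq (GRCm38.p6), B2m at chr2:122147437-122147686 and Igtp at chr11:58199306-58199555, both on the plus strand. Capitals mark the core of the interferon-stimulated response element, searched as GAAANNGAAA on both strands.
B2m: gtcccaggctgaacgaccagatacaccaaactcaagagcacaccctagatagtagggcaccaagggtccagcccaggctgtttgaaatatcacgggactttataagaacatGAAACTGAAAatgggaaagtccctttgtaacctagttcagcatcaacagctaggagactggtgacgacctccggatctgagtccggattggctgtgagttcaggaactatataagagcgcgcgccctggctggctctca
Igtp: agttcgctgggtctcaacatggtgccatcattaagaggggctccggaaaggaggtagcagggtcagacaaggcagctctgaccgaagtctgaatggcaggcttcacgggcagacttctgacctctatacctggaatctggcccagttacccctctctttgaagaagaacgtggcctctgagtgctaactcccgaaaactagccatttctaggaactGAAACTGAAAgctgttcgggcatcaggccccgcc
The core began 139 bases before the start site in B2m and 34 bases before it in Igtp. Of 32851 such windows in the table, 978 (2.98%) held it. It was present in 10 of 10 GTPase genes with an entry, in 10 of 24 interferon-stimulated genes and in 3 of 19 class I machinery genes (B2m, H2-T22 and H2-T23), and in 0 of 20 astrocyte list genes that were called lower and had an entry. The window of H2-D1 did not hold these letters, and Zbp1 had no entry. A match is a description of letters and not of a bound site.

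The complement gene C4b and the acute phase gene Serpina3n were above the unimmunised range in every E1 and E4 library. C4b, a complement component, was at 401, 208, 893, 709 and 575 CPM at E1 and at 959 to 1581 CPM at E4 (median 1202), against 4.96 to 24.3 CPM in unimmunised cord. The stages did not overlap, the change was 1.16 (SE 0.36, adjusted p = 0.039 by edgeR), and 8 of 21 alternatives lost the call. The other complement gene called of 14 was Cd55, lower (7.14% each way, base rates 1.39% higher and 7.09% lower). Cd55 was at 7.47 and 4.11 CPM in 2 E1 libraries and at 0 in the other 9 libraries. Serpina3n, a secreted protease inhibitor of reactive astrocytes, was at 1214, 766, 2385, 1638 and 3428 CPM at E1 and at 1675 to 2160.0 CPM at E4 (median 1790.2), against 12.6 to 32.2 CPM in unimmunised cord. The E4 values lay inside the E1 range, and the difference was -0.01 (SE 0.44, adjusted p = 1 by edgeR).

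The reactive gene lists given by the study were set beside the base rates. Of 13 pan-reactive genes 1 was lower (Aspg, an asparaginase, -3.91), of 11 LPS-reactive (A1) genes 1 was higher (H2-D1) and of 11 MCAO-reactive (A2) genes 0 were called, with medians of -0.88, 0.30 and -0.62. The pan-reactive share called lower, 7.69%, was near the base rate of 7.09%, and the LPS-reactive share called higher was 9.09% (base rate 1.39%). Of 21 regulators of STAT3, NF-kappaB and C/EBP signalling 1 was called, lower (4.76%, base rate 7.09%). It was Tnfrsf1a, the TNF receptor (-1.11, SE 0.27), and its sign was positive within the lower index range. Among 27 chemokines and cytokines 7.41% were called lower (base rate 7.09%) and 3.7% higher (base rate 1.39%). The constitutive Cxcl14 (-2.38, SE 0.26) and Cx3cl1 (-1.22, SE 0.36) were lower. Cxcl14 kept its call in all 21 alternatives, and Cx3cl1 lost it in 10. Tnfsf13b (BAFF) was called higher, with a median of 0.926 CPM at E4 and 0 in all 5 E1 libraries. Vcam1, an adhesion molecule, was at 60.5, 162, 37.1, 25.7 and 51.4 CPM at E1 and 3.37 to 25.7 CPM at E4 (median 15), a change of -2.22 (SE 0.32, adjusted p = 1.3e-07 by edgeR).

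**Figure D3:**
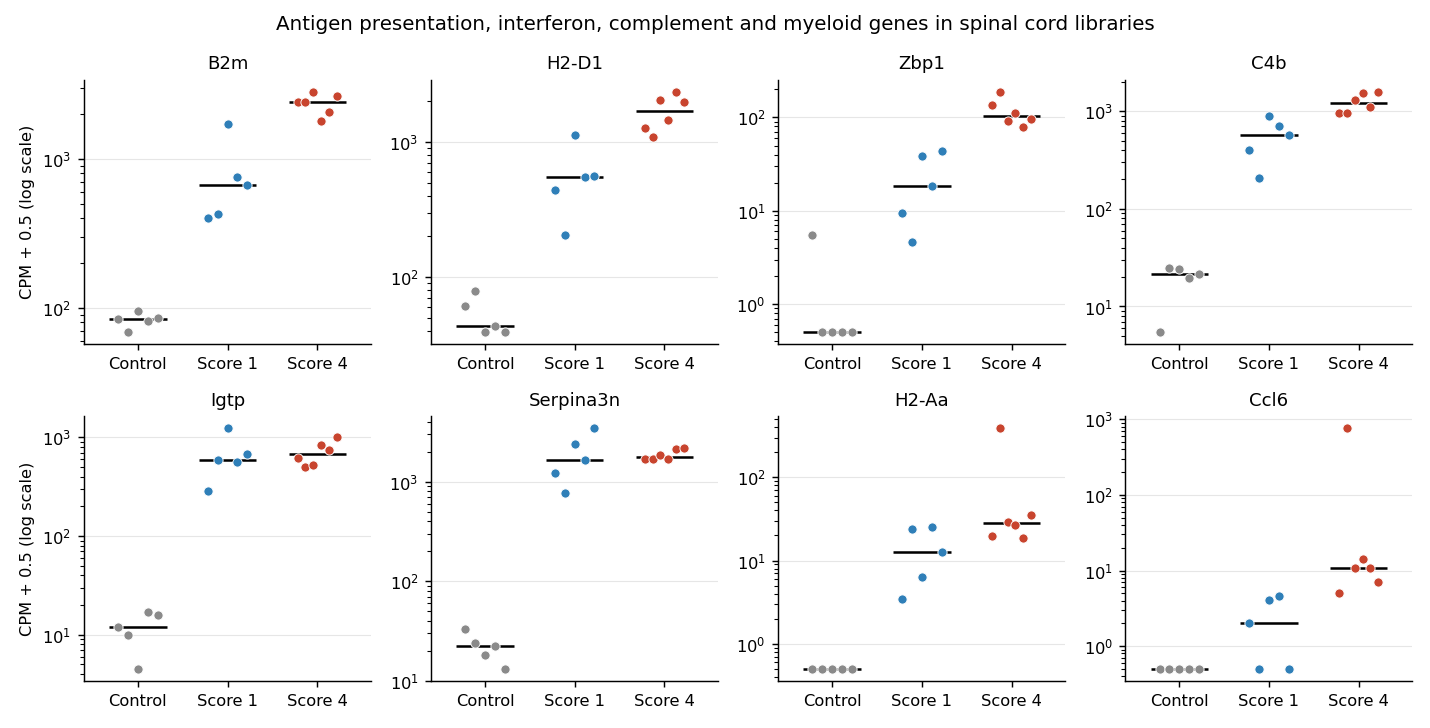
CPM + 0.5 (log scale) of 8 immune genes in the spinal cord GLASTneg libraries of unimmunised (Control, 5), score 1 (5) and score 4 (6) mice; each point is a library, in replicate order from left to right, and the black line is the median. B2m, H2-D1, Zbp1 and C4b rose again from score 1 to score 4, Igtp and Serpina3n overlapped between the scores, and H2-Aa and Ccl6 had their highest value in score 4 replicate 2.

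Myeloid genes were called higher, through 1 library. Of 17 microglia and macrophage genes 8 were called higher (47.1%, base rate 1.39%) with a median of 2.89, and 0 of 17 with a median of 0.64 without E4 replicate 2. Lyz2, a lysozyme, was at 0.249, 0.456, 5.92, 30.1 and 2.53 CPM at E1, at 13.8 to 79.4 CPM in 5 E4 libraries and at 1381 CPM in replicate 2. The cathepsin Ctss was at 12.9 to 49.3 CPM at E1, 45.1 to 81.7 CPM in 5 E4 libraries and 2145 CPM in replicate 2, and the integrin Itgam (CD11B, gated out) at 3.16 to 12.3, 5.46 to 9.02 and 519.7 CPM. The 5 other E4 libraries overlapped E1 for each of these genes. Of 10 MHC class II genes 3 were called (30%, base rate 1.39%), H2-Aa (2.63), H2-Ab1 (3.42) and H2-Eb1 (3.42), and 0 without that library, where the median of the list went from 3.42 to 1.31. H2-Aa was at 2.99, 23.2, 5.92, 24.7 and 12.1 CPM at E1, at 18 to 34.6 CPM in 5 E4 libraries and at 385 CPM in replicate 2. Of 12 T and NK cell genes 0 were called (all genes tested 4.8%, median 1.28). Their summed level was 6.47 to 34.3 CPM at E1 and 17.5 to 89.8 CPM at E4.

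The 10 non-overlapping genes with the largest rise were Ccl6, Fcgr3, Cyba, Col18a1, Zbp1, Uap1l1, Mast2, B2m, Tmem106c and Nat9. The chemokine Ccl6 (757 CPM), the Fc receptor Fcgr3 (369 CPM) and the NADPH oxidase subunit Cyba (84.9 CPM) had their highest level in E4 replicate 2 and were not called without it, although the other 5 libraries, at 4.51 to 13.6, 10.2 to 25.7 and 2.72 to 6.49 CPM, still lay above E1. Ccl6 overlaps E230016K23Rik on the other strand. Col18a1, a basement membrane collagen, was at 10.9, 0, 0, 3.42 and 11.2 CPM at E1 and at 15.9 to 98.1 CPM at E4 (median 24.1), a change of 2.98 (SE 0.94, adjusted p = 0.04 by edgeR) that 7 of 21 alternatives lost. The kinase Mast2 was at 11.4, 0, 5.53, 10.6 and 7.87 CPM at E1 and at 21.8 to 36.7 CPM at E4 (median 28.7), a change of 2.00 (SE 0.42, adjusted p = 0.00058 by edgeR). Uap1l1 changed by 2.03 (SE 0.47), Tmem106c by 1.54 (SE 0.44) and Nat9 by 1.47 (SE 0.45), at E4 medians of 18.2, 15.7 and 36.3 CPM. Their calls were lost in 1, 4 and 10 of 21 alternatives.

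Of 28 matrix and scar genes 5 were higher and 5 lower (17.9% each, base rates 1.39% and 7.09%), and 1 and 3 without E4 replicate 2. Higher were Spp1 (osteopontin), Col6a1, Fn1 (fibronectin), Lgals3 (galectin 3) and Vcan (versican). Fn1 was at 2.24, 9.57, 1.97, 6.16 and 0 CPM at E1, at 4.51 to 20 CPM in 5 E4 libraries and at 499 CPM in replicate 2. Vcan, a proteoglycan that oligodendrocyte precursors make, was at 233, 116, 99.9, 147 and 347 CPM at E1 and at 186 to 768 CPM at E4 (median 363), a change of 1.24 (SE 0.33, adjusted p = 0.0096 by edgeR) that was not called without E4 replicate 2. Lower were Sparcl1, the perineuronal proteoglycans Bcan (-1.95, SE 0.31) and Ncan (-1.20, SE 0.35), and the fibrillar collagens Col1a1 (-2.91, SE 0.86) and Col1a2 (-2.79, SE 0.36). Bcan and Col1a2 kept their calls in all 21 alternatives, Ncan lost its call in 8 and Col1a1 in 9, with a smallest change of -0.98. Col1a1, Col1a2 and Pdgfrb, a receptor of pericytes, were the 3 of 7 pericyte and fibroblast genes that were called, all lower (42.9%, base rate 7.09%). Pdgfrb was at 17.9, 9.11, 0.395, 1.03 and 9.56 CPM at E1 and at 0 to 1.59 CPM at E4 (median 0), and the summed level of the 7 genes was 14.6 to 175 CPM at E1 and 6.23 to 22.5 CPM at E4, with 85.7 to 187 CPM in unimmunised cord. The part of these cells in the fall of the collagens was not tested.

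Genes of the oligodendrocyte lineage were not called. Of 10 oligodendrocyte, 4 precursor and 3 lineage factor genes 0 were called, with medians of 0.43, -0.03 and 0.06. Over all genes tested 4.8% were called, so 0 in lists this short is near that share. Mobp, a myelin structural gene, was at 2985, 1272, 6098, 5901 and 3009.8 CPM at E1 and at 5021 to 11325 CPM at E4 (median 7514), against 387 to 1468 CPM in unimmunised cord. The stages overlapped, and the difference was 0.95 (SE 0.43, adjusted p = 0.18 by edgeR). Mbp differed by 0.56 (SE 0.34) and Olig2 by -0.52 (SE 0.31). Of 35 cell cycle genes 0 were called (all genes tested 4.8%, median 0.39), with differences of 1.77 (SE 0.96) for Mki67 and 1.12 (SE 0.66) for Top2a.

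Of the 9 Hox genes of the trunk, which mark position along the body axis, 2 were called lower (22.2%, base rate 7.09%). All 9 had a negative sign, with a median of -1.01, and Hoxc6 (-2.23, SE 0.66) and Hoxc8 (-1.92, SE 0.62) were called. Their summed level was 310.1, 416, 185, 237 and 356 CPM at E1 and 100.2 to 220.1 CPM at E4 (median 152), against 484 to 819 CPM in unimmunised cord. The summed levels of the stages overlapped. Hoxc6 lost its call in 6 and Hoxc8 in 13 of 21 alternatives, and 0 of the 9 were called with the index range as a term or without E1 replicate 1, E1 replicate 2, E4 replicate 2 or E4 replicate 6. The astrocyte genes were lower in the same libraries, and whether these Hox RNAs came from the same cells was not tested.

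**Figure D4:**
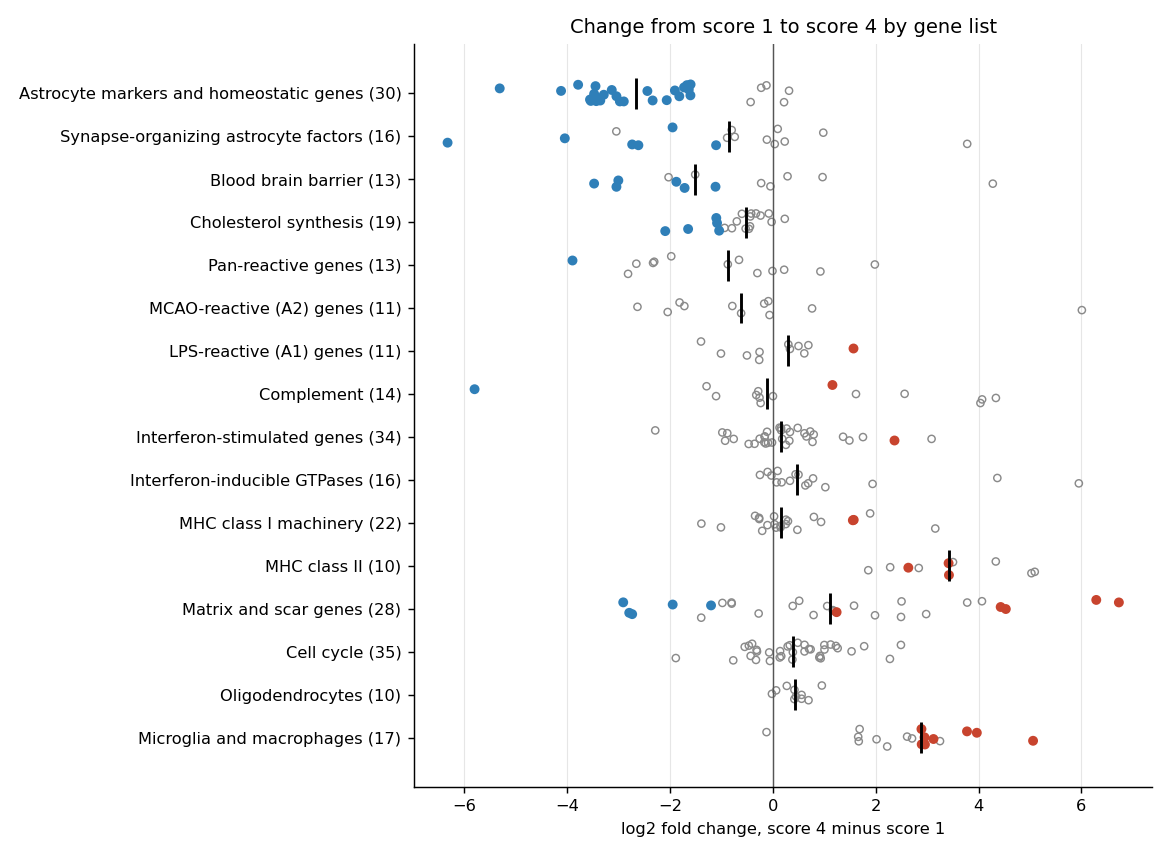
Log2 fold change, score 4 minus score 1, of each tested member of 16 gene lists (number tested in brackets); filled points were called (red higher, blue lower), open grey points were not, and the black bar is the median. The astrocyte list lies at -2.67, the interferon, class I, oligodendrocyte and cell cycle lists near 0, and the microglia and macrophage list at 2.89 with E4 replicate 2 included.

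The hindbrain gave the reference for a change between the same scores. In hindbrain GLASTneg cells 0 genes (0%) were called by edgeR between E1 and E4, and in hindbrain GLASTpos cells 5 genes (0.0214%), with Erich3 and Gm38056 higher (0.00857%) and Hebp2, Arc and Lrrc4c lower (0.0129%). An unadjusted p under 0.05 by edgeR was reached by 1397 genes in GLASTneg, 3698 in GLASTpos and 4989 in spinal cord. About 1166 would be expected by chance, so few calls in GLASTpos cells do not mean that nothing changed there. The difference between the spinal cord change and the hindbrain change was tested as an interaction and was called for 686 genes (2.94%) against GLASTneg, 82 (0.352%) higher and 604 (2.59%) lower in spinal cord, and for 903 genes (3.87%) against GLASTpos, 194 (0.832%) higher and 709 (3.04%) lower. Both tests share the spinal cord libraries. The E1 and E4 libraries of hindbrain GLASTneg all lay in the lower index range and those of GLASTpos all in the upper one. The index thus changed with the stage in the cord but not in the hindbrain, and region and index could hardly be told apart in these interactions. With the index range as a term 259 and 306 genes were called. Each of the 11 cord libraries also carried in its label a number that a hindbrain library of the same stage carried, and no number was shared between the 11 or between stages. What the numbers mark is not given in the sources used here, and if they mark mice, cord and hindbrain libraries were not independent. In a limma fit with libraries that share a number as a correlated block, 604 and 585 genes were called, against 586 and 573 without the block, and 23 and 22 of the 30 astrocyte genes in either fit.

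The astrocyte list differed between the regions. Of its 30 genes 23 had a called interaction against hindbrain GLASTneg and 24 against GLASTpos, all negative. In the hindbrain the list had medians of 0.01 (-0.34 to 0.28) and -0.02 (-0.45 to 0.38), and the smallest adjusted p by edgeR was 0.88 and 0.23. Atp1b2 was at 7749 and 8286 CPM on average at E1 and E4 in hindbrain GLASTneg cells, and its interaction was -3.39 (SE 0.39, adjusted p = 3.6e-09 by edgeR). The interactions of Slc7a10 and Hes1 against GLASTneg were -5.20 (SE 0.63) and -5.31 (SE 0.70), and against GLASTpos -5.06 and -5.13. Mt2 differed from both hindbrain populations (-2.15, SE 0.51, and -1.98).

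Of the immune genes called higher at E4, B2m, H2-D1, Zbp1, C4b, H2-Aa and H2-Eb1 had no called interaction. The interaction of B2m was 0.62 (SE 0.45, adjusted p = 0.59) against GLASTneg and 1.13 (adjusted p = 0.15) against GLASTpos by edgeR, and that of H2-D1 was 0.26 (SE 0.51) and 0.74. Their own hindbrain changes were 0.95 and 0.44 for B2m and 1.30 and 0.81 for H2-D1, none of them called. Igtp had positive changes in the hindbrain (1.16 and 1.43, not called) and 0.09 in spinal cord, with interactions of -1.07 (SE 0.72, adjusted p = 0.54) and -1.34 (adjusted p = 0.35) by edgeR. The interactions of Ccl6 and Fcgr3 were called against GLASTneg (5.53, adjusted p = 0.037, and 4.00, adjusted p = 0.012 by edgeR) and GLASTpos (6.32 and 4.62), and those of H2-Ab1 (3.48) and Cyba (3.41) against GLASTpos alone. None of these 4 genes had a called interaction without E4 replicate 2. The largest interactions at 5 CPM or more fell on genes seen in single libraries or with near-identical copies. Rps27a-ps2 and Tmem254a had counts in only 1 spinal cord library of the 11, E1 replicate 5, with 119 and 27.3 CPM, and Gstp2, Gm4759 and Trem1 were at 0 in all 5 E1 libraries with E4 medians of 14.4, 0.389 and 0.282 CPM.

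**Figure D5:**
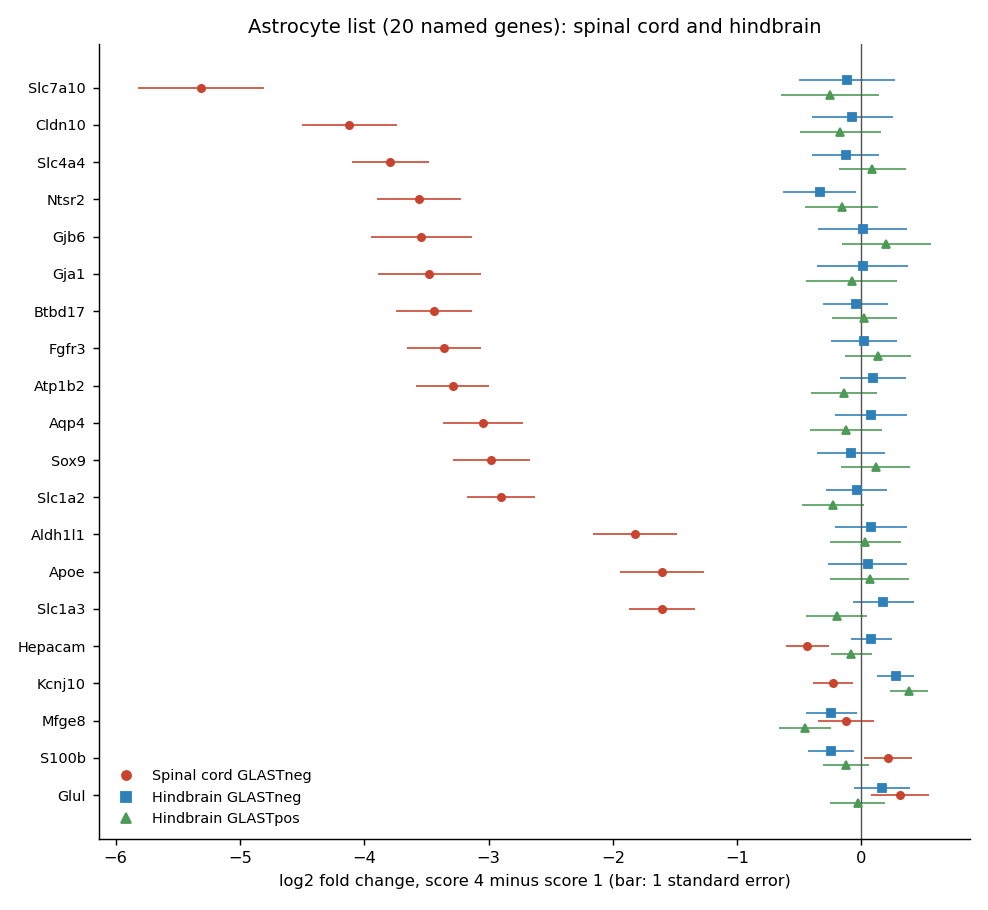
Log2 fold change, score 4 minus score 1, of 20 of the 30 astrocyte list genes, those named in the text, in spinal cord GLASTneg (red circles), hindbrain GLASTneg (blue squares) and hindbrain GLASTpos (green triangles) cells, with bars of 1 SE. The spinal cord values reach from -5.31 to 0.31, and all hindbrain values shown lie between -0.45 and 0.38.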

How the data were processed

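Sorted cells were lysed, and 3-prime tag libraries (QuantSeq) were sequenced in single reads. The authors mapped reads with HISAT 0.1.5 (GRCm38) and assigned them to Ensembl genes with HTSeq 0.6.1p1, and the deposited table holds raw counts of 48526 genes. Whether strand was used is not given in the sources used here. A 3-prime tag gives about 1 read per transcript, so levels were compared between libraries and not between genes per length.

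All 66 EAE libraries in 12 groups were fitted with edgeR 4.0.16 (R 4.3.3, quasi-likelihood, TMM) on the 23324 genes with at least 10 counts in total. The thresholds and the filter on low counts follow the study's methods. The study tested with DESeq2, which served here as an alternative (version 1.42.0), as did limma 3.58.1 on log2 CPM (prior count 2). No 2 libraries held identical counts. Groups follow the sample titles. Nothing says that the libraries of a group came from separate mice, so p-values measure the spread between libraries and not between mice. In the main fit this spread was estimated within the groups over all 66 libraries. It was therefore not the spread of the compared cord libraries alone. With simulated counts for this comparison (22861 genes, 50 changed genes per size), edgeR recovered 98% and 94% of genes changed by 2 and -2 on the log2 scale and 100% of those changed by 3 in either direction. The changed genes all had a mean of at least 10 CPM. Their spread was set by a formula and no library was made to stand apart. These shares therefore do not give the power for weakly expressed genes or for the spread of the real libraries, and an uncalled gene may have changed.

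The members, gene lists and named genes were chosen with earlier results of these data known. Genes were named by rule, as the 10 non-overlapping called genes with the largest change in each direction at a mean of 5 CPM or more in the higher group, the genes the study names, up to 4 called members of each list, and the 3 largest interactions. Some genes that the rule names are not reported here. Genes such as the uncalled list members and the examples of class I, interferon and class II genes were added by hand. No paired fit entered the results given, and alternatives are described at the end.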

Additional observations from a re-analysis of the deposited data

Results flagged for a closer look

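In 55 of 212 groups of libraries examined for the named genes and marker sums, 1 library stood apart, meaning that its gap to the nearest library, divided by the whole range of the group, passed Dixon's critical value (0.71 for the 5 E1 libraries and 0.625 for the 6 E4 libraries). For normally distributed values chance gives about 1 in 20 groups. The ratios were taken on untransformed CPM, which is skewed and often near 0, so that rate may not hold, and the genes are not independent. Some flagged values lay under the detection floor, among them Spp1 in E1 replicate 3 (0.395 CPM), Gm9925 in E4 replicate 3 (0.519 CPM) and Rilp in E4 replicate 2 (0.898 CPM).

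E4 replicate 2 stood apart 23 times, as the highest library. The ratios were Rilp (1), Itgam (0.993), Ccl6 (0.988), Ctss (0.983), Ier3 (0.976), Fn1 (0.969), Klf4 (0.968), summed microglia and macrophage genes (0.967), H2-Ab1 (0.96), Fcgr3 (0.957), Spp1 (0.956), H2-Aa (0.955), Cyba (0.954), Lyz2 (0.952), summed monocyte and neutrophil genes (0.938), Hk2 (0.938), Lgals3 (0.925), Ptprc (0.922), Apoe (0.909), H2-Eb1 (0.907), Shisa6 (0.747), Pgam1 (0.701) and Vegfa (0.676).

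E1 replicate 2 stood apart 21 times, as the highest library except in Hmgcs1, where it was the lowest. The ratios were Gpc4 (1), Rilp (0.941), Shisa6 (0.919), Ntsr2 (0.843), Angpt1 (0.829), Atp1b2 (0.812), Sox9 (0.812), Slc39a12 (0.803), Cxcl14 (0.79), Cldn10 (0.78), Gja1 (0.776), Apoe (0.775), Mt2 (0.766), Slc7a10 (0.764), Itgam (0.761), Hmgcs1 (0.756), Mt1 (0.753), summed monocyte and neutrophil genes (0.751), Vcam1 (0.745), Vegfa (0.726) and Bcan (0.711).

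Other libraries stood apart in single genes. E1 replicate 3 did so in Spp1 (1) and B2m (0.729), E1 replicate 4 in Lyz2 (0.81) and Klf4 (0.737), E4 replicate 1 in Ldhb (0.824), E4 replicate 3 in Gm9925 (1), E4 replicate 4 in Slc1a3 (0.638) and E4 replicate 5 in Pdgfrb (1), Aspg (0.805), Cldn10 (0.658) and Slc39a12 (0.638).

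The change from E1 to E4 differed between spinal cord and hindbrain by the interaction test of edgeR for 686 genes against GLASTneg and 903 genes against GLASTpos cells, and for 23 and 24 of the 30 astrocyte list genes. In the cord, unlike the hindbrain, the stages also differed in index range.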

How the results depend on the processing

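In the stage comparison and both interactions more genes were called lower than higher under every alternative run. In the stage comparison the astrocyte list had a negative median, with 21 to 25 of the 30 genes called lower, leaving aside the voom fit described below, which gave 15. For the interactions the astrocyte genes were counted only in the main fit, without E4 replicate 2, and in the limma fits. Apart from voom, 22 to 24 were called lower there. Sizes moved. Of 1120 genes called between E1 and E4 (193 higher, 927 lower), fitting the 11 libraries alone gave 435 (75 and 360, 412 of them among the 1120), the spinal cord libraries alone 616 lower, and the index range as a term 429 (32 and 397). Leaving out single libraries gave 681 to 1340 (77 to 284 higher, 584 to 1056 lower), the fewest higher without E4 replicate 2 and the fewest in total without E1 replicate 2. Leaving out E4 replicate 2 and E1 replicate 1 together, chosen after the data were seen, gave 71 higher. For the interaction with hindbrain GLASTneg (686; 82 and 604) the index range as a term gave 259 (11 and 248), DESeq2's Wald test 144 higher, the pair of libraries left out 41 higher, and single libraries left out 418 to 902 (40 to 169 higher, 378 to 733 lower). For GLASTpos (903; 194 and 709) the contrasted groups alone gave 330 (27 and 303), the index range 306 (36 and 270), the pair left out 98 higher, and single libraries left out 545 to 1070 (95 to 273 higher, 450 to 797 lower). The cause of these moves was not tested, though fits of fewer libraries have fewer degrees of freedom. The replicate numbers did not pair the libraries (mean correlation of deviations 0.00688 for equal and -0.000383 for other numbers). A replicate block gave 1043 genes between E1 and E4, 628 and 688 for the interactions, 105 of the last higher. A limma fit on log2 CPM, added after the data were seen, gave 573 genes for GLASTpos (88 higher), and 585 (91 higher) with libraries that share a label number as a block (correlation 0.0248). Deviations of cord and hindbrain libraries that share a number correlated by 0.0489 and 0.0335 on average, and of others by -0.00571 and -0.00453 (GLASTneg, GLASTpos). The voom weights of limma were tried first and left out, since they ran from 0.358 to 1.94e+06. With them 802, 405 and 384 genes were called, and 15, 12 and 9 of the 30 astrocyte genes. Signs changed in genes near 0 and, without E4 replicate 2 or without the pair, in some genes far from 0. These were Ier3, Hk2 and Ptprc, at 2.888, 1.6 and 1.828 in the main fit, where Ier3 and Hk2 were called. Serpina3n was at 0.006 without the low-count filter, 0.009 with the replicate block, 0.012 with DESeq2 size factors and its Wald test, 0.024 with filterByExpr, 0.03 in spinal cord alone, 0.033 in the 11 libraries and -0.167 to 0.369 without single libraries, and at 0.17 in limma. Igtp was at -0.193 with the index range, -0.007 without the pair and -0.084 to 0.456 without single libraries, and Mfge8 at -0.234 to 0.045. Without E4 replicate 2 Ier3 reached -0.118 (highest 3.151) and Hk2 -0.432 (highest 1.952), and without the pair they were at -0.269 and -0.114, and Ptprc at -0.131. Gpc4 went from -6.697 to 0 without E1 replicate 2. At these depths levels under 0.682 to 1.69 CPM were not detectable.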

Other observations

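Other gene groups were set beside the base rates of 1.39% higher and 7.09% lower. Of 13 respiratory genes encoded by the mitochondrial genome 0 were called by edgeR, with 9 negative signs and a median of -0.66. Of 15 genes of the amino acid and unfolded protein stress responses 1 was called (6.67%), the chaperone Dnajb9, lower at E4, with a median of 0.11. Of 12 T cell ligand and adhesion genes, Vcam1 was lower and the costimulatory Cd86 higher (8.33% each). Cd86 was at 0 in all 5 E1 libraries and at 0 to 3.55 CPM in 5 E4 libraries, with 27.4 CPM in E4 replicate 2. Of 19 immediate early genes, often induced by tissue dissociation, Ier3 and Klf4 were called higher (10.5%). Ier3 was at 23.4, 39.6, 34.4, 53.4 and 46.9 CPM at E1, at 17.5 to 54.8 CPM in 5 E4 libraries and at 1580.2 CPM in E4 replicate 2, without which neither gene was called higher. Of 7 growth factor and iron genes that the study tied to myelination 0 were called (median -0.56). With so few genes, 0 called of 13 or of 7 cannot be told apart from the base rates.

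Of 5 red blood cell genes 1 was called, lower at E4, against 3.97% of all genes, and 9 of 21 alternatives lost the call, among them the fit without E1 replicate 4. Their summed level was 75.7 and 29.8 CPM in E1 replicates 4 and 5, under 1 CPM in the other 3 E1 libraries, and 0 to 3.11 CPM at E4.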
